A study of Rattus norvegicus with 4 samples.

Results

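The serum exosome array titled severe (day 49) was set against the array titled light (day 35), a comparison within the tumour samples of the series that leaves the uninjected sample out as reference. It addresses how the microRNA (miRNA) content of serum exosomes differed between the samples called severe and light. All rat miRNAs that the scanner software called detected on at least 1 of the 2 arrays were taken, which gave 139 of the 719 rat miRNAs on the array. Of these, 112 were detected on both arrays, 17 on the severe array alone of the pair and 10 on the light array alone.

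Exosomes are small vesicles that cells release into blood and other fluids. RNA of serum exosomes from male rats was labelled with Cy3 and measured on 1-colour miRNA arrays of Agilent's rat design, with 1 array for each of 4 groups: naive (no injection, day 0), light (day 35), moderate (day 49) and severe (day 49). The light, moderate and severe rats share the same treatment, which the sources describe differently: the treatment protocol has an unnamed hepatocellular carcinoma (HCC) cell line injected, and the design text has HCC exosomes given once, to rats whose strain it writes as "baffolo". What graded a rat as light or severe is not given in the sources used here. The design text mentions 4 experiments per time with different rats, and whether an array holds RNA of 1 rat or a pool is not stated. The labelling protocol describes amplified cRNA, although the array is one for miRNA. Severity, day, animals and array differ together between the 2 samples and cannot be told apart. With 1 array a group there is no replicate error and no p-value, so every difference is one between these 2 arrays. Each ± is a standard error (SE) among the spots of a single array, so it holds spot noise and no variation between animals.

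A miRNA is cut from a hairpin precursor, of which either arm, 5p or 3p, can give a mature strand. The mature strand pairs with messenger RNAs mainly through its seed, bases 2 to 8, so miRNAs with 1 seed have overlapping predicted targets. Serum exosomes carry miRNAs of many origins, among them red cells, platelets, leukocytes and liver, and miRNAs are followed in serum as markers of tissue damage and of tumours.

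The sequences on which the results turn are given first, 5′ to 3′, with the seed in capitals, as RefSeq lists them for rat assembly GRCr8; the table held 126 of the 139 miRNAs. The first group is the seed family of miR-92b-3p, the miRNA named in the series title. Positions are counted from 1 at the 5′ end, and miR-92b-3p differs from miR-92a-3p by U10C and G21C (the base of miR-92a-3p is written first).
miR-92b-3p: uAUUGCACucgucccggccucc
miR-92a-3p: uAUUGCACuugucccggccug
miR-25-3p: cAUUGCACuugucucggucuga

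Next come pairs that are nearly identical in sequence but lay apart in this comparison. Within a pair the seed is shared, and the substitutions are C22G from miR-107-3p to miR-103-3p, C10U from miR-29a-3p to miR-29c-3p, and U11A and A13G from miR-130a-3p to miR-130b-3p. From miR-192-5p to miR-215 they are C1A, A12U and C20A.
miR-103-3p: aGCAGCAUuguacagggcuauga
miR-107-3p: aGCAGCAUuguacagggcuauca
miR-29a-3p: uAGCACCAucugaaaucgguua
miR-29c-3p: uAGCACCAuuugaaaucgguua
miR-130a-3p: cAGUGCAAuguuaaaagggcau
miR-130b-3p: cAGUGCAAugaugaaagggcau
miR-192-5p: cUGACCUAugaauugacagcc
miR-215: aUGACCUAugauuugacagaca

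The remaining sequences are those of leading higher miRNAs (miR-652-5p to miR-1224) and of leading lower ones (miR-652-3p to let-7d-5p). The strands miR-652-5p and miR-652-3p come from opposite arms of 1 hairpin.
miR-652-5p: aCAACCCUaggagggggugccau
miR-10a-5p: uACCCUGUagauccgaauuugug
miR-483-5p: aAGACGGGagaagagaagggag
miR-494-3p: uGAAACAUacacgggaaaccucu
miR-370-3p: gCCUGCUGggguggaaccuggu
miR-1224: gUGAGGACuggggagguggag
miR-652-3p: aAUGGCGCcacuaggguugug
miR-133b-3p: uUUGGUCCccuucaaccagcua
miR-423-5p: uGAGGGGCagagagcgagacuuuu
let-7a-5p: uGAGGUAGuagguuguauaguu
let-7d-5p: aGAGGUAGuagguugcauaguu

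The value of a miRNA is its background-subtracted intensity summed over its probes, called the signal below and given unscaled. For folds each array was scaled to its 75th percentile, taken over the 111 miRNAs with a detection call on all 4 arrays, which was 356 units on light and 415 on severe. A miRNA counts as measured if it had a detection call and a signal at or above the array's floor, which is the lowest probe mean for which a share of 0.5 or more of the spots was well above background (15.1 units on light, 16.01 on severe). The summed signal of detected miRNAs on severe was 1.08 times that on light. The labelling spike-ins dmr_285 and dmr_31a read 0.754 and 0.503 times as much on severe as on light, and 525 of 14380 miRNA spots were marked as outliers on severe against 387 on light. Across the 104 miRNAs measured on all 4 arrays, the log2 signal of severe correlated with that of light at Pearson r = 0.827, while pairs among naive, light and moderate lay at 0.970 to 0.974. Such an r runs over miRNAs and not over replicates. The severe array thus stood apart from the other 3, and every result below rests on it. Its lower spike-in signal and its larger number of outlier spots go with every difference, and their part was not tested.

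Of the 139 miRNAs, 104 were measured on both arrays, and 22 of these were higher on severe by 2-fold or more (21.2%) and 34 lower by as much (32.7%), together 56 (53.8%). The rest comprised 15 measured on severe alone, 14 on light alone and 6 on neither, namely miR-122-3p, miR-24-2-5p, miR-30c-1-3p, miR-344g, miR-3546 and miR-532-5p. Where only 1 array measured a miRNA, the fold is a bound, set against the floor or the miRNA's own signal on the other array, whichever was larger. Because the floor is that of a single probe and the signal a sum over probes, such a bound is not strict. Bounds past 2-fold added 8 higher and 5 lower miRNAs, which makes 30 (22.6%) and 39 (29.3%) of 133. Differences ran from −3.43 to 3.45 on the log2 scale with a median of −0.47, and 35 were above 0 and 69 below. At 4-fold the higher side was longer, with 9 miRNAs against 4. Spot noise was small beside these sizes, with a median SE of 0.03 and a largest SE of 0.21 on the log2 scale.

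The number of lower miRNAs depended on the scaling, and the number of higher ones was 22 under 5 scalings and 33 with the spike-ins. Without scaling the median was −0.25 and the counts were 22 higher and 19 lower. Dividing by the median of the common miRNAs gave 22 and 17, quantile normalization 22 and 20, and scaling to the labelling spike-ins 33 and 5, with a median of 0.45. The share of higher among all miRNAs past 2-fold was 39.3% with the 75th percentile, 53.7% without scaling, 56.4% with the median, 52.4% with quantile normalization and 86.8% with the spike-ins. The same 22 miRNAs were at least 2-fold higher under all 6 scalings tried. Under all 6, 5 miRNAs were at least 2-fold lower: let-7d-3p, miR-133b-3p, miR-150-5p, miR-328a-3p and miR-423-5p. Read against the median of −0.47, 22 miRNAs lay at least 2-fold above it and 12 at least 2-fold below. A normal-exponential background correction, which adds 50 units to each spot and so lowers folds by construction, left 5 higher and 7 lower past 2-fold. Among the 10 largest rises, miR-494-3p (1.34) and miR-370-3p (1.06) then stayed past 2-fold, and among the 10 largest falls miR-133b-3p (−1.78), miR-150-5p (−1.41), miR-328a-3p (−1.27) and miR-26a-5p (−1.17) did. The other 14 of these 20 miRNAs were under 2-fold with it, as was every miRNA measured on 1 array alone.

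**Figure D1:**
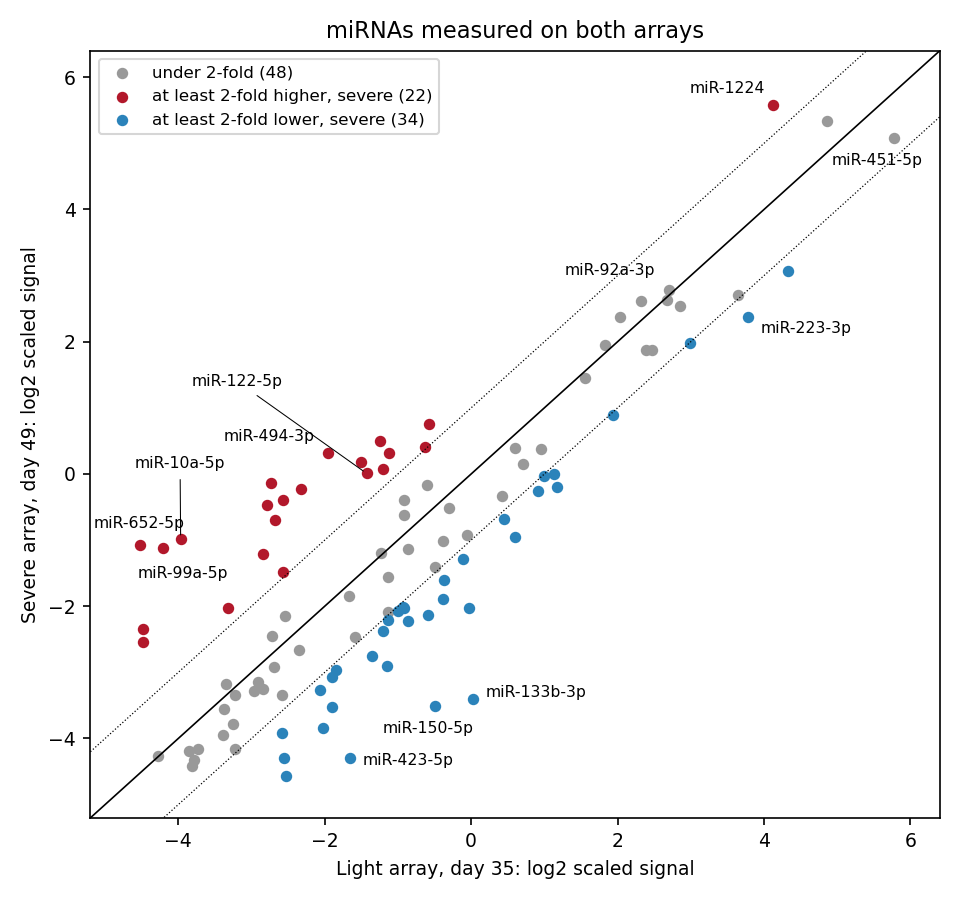
Scaled signal (log2) of every miRNA measured on both arrays, light on the horizontal and severe on the vertical axis; the solid line marks equality and the dotted lines 2-fold. The 22 red points were higher and the 34 blue points lower on severe by 2-fold or more, and the number of blue points is 5 when the spike-ins set the scale.

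miR-92b-3p, the miRNA of the series title, had the largest bound of the comparison. It read 246 ± 5.38 units on severe and −23.2 ± 2.02 on light, with −30.4 on naive and −24.6 on moderate. Only the severe array was above background, and it was at least 13.9-fold higher than light (log2 bound 3.80). This bound was 0.90 on the log2 scale, under 2-fold, with the normal-exponential correction. Of its 4 probes on severe, 1 read 223 ± 4.53 and 1 read 29.8 ± 2.67, and the others read −1.25 and −5.27, each over 5 spots. On light the same probes read −6.05, −4.91, −6.10 and −6.16. The signal on severe therefore came from 10 of the 20 spots, those of 2 probes. The seed relative miR-92a-3p, of the miR-17-92 cluster, was bright on every array, with 4235, 2319, 5967 and 2862 units on naive, light, moderate and severe. Severe and light lay within 2-fold for it (log2 0.08 ± 0.02), and its 2 probes disagreed in sign, at −0.17 and 0.15. miR-25-3p, of the miR-106b-25 cluster, read 537 on light and 543 on severe, and after scaling its log2 difference was −0.20 ± 0.03. miR-363-3p, with the same seed, was measured on light alone, with 15.6 ± 1.37 units against 3.27 on severe, and its bound stayed under 2-fold. Both relatives measured on light and severe thus lay within 2-fold, and for miR-363-3p the size of the difference is not settled by its bound.

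**Figure D2:**
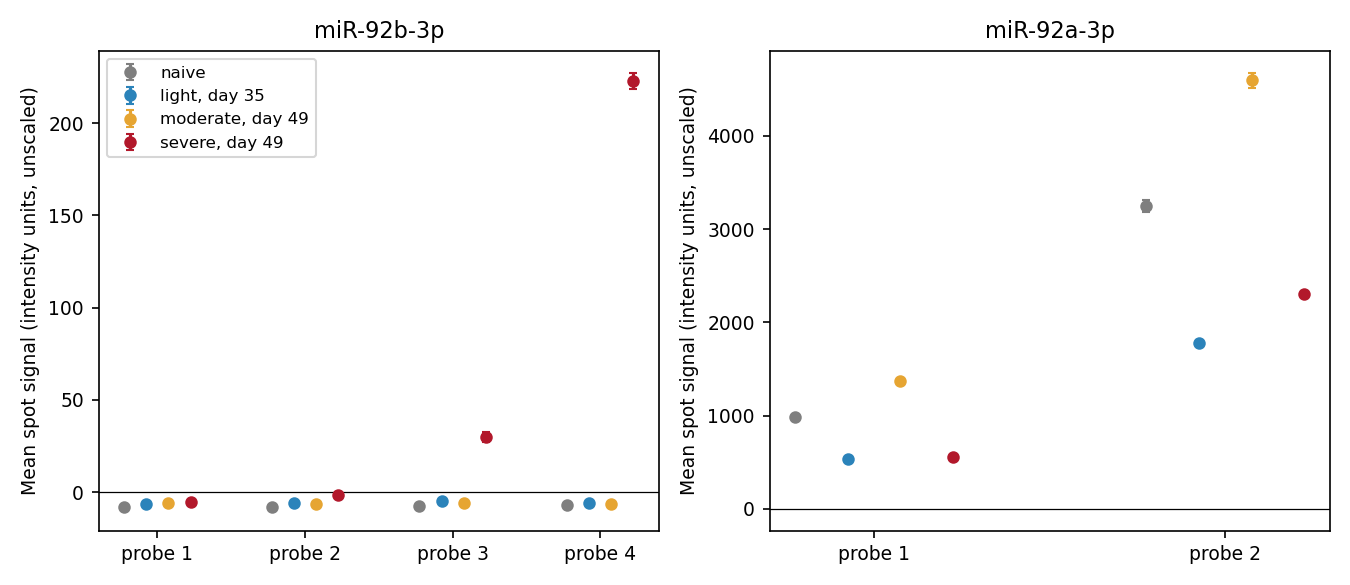
Mean unscaled signal of each probe of miR-92b-3p (left, 4 probes) and miR-92a-3p (right, 2 probes) on the 4 arrays; points are means over the spots of a probe and bars are SE over spots. For miR-92b-3p, 2 probes of the severe array, at 223 and 29.8 units, stand above 0, whereas every miR-92a-3p probe is bright on all arrays.

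Strands on the list of imprinted loci were higher on severe in each case measured, which holds for that list alone. The miR-466 strands of the Sfmbt2 intron cluster are not on it. Of these, miR-466b-5p lay at −1.21, and miR-466b-1-3p, miR-466c-3p and miR-466b-2-3p at 1.34, 1.28 and 1.08. The list held 14 such strands, of which 5 were detected on either array, and all 3 with a value on both arrays were higher by more than 2-fold, with a median log2 difference of 2.28 against −0.47 over all miRNAs and 2.27 to 3.20 over the scalings. miR-483-5p, which lies in an intron of insulin-like growth factor 2, read 53.5 ± 2.01 on light and 377 ± 4.53 on severe, and 85.3 and 160.1 on naive and moderate. As a sum over probes it was 6.04-fold higher on severe, with only 8 of 20 spots well above background on light. Its 2 probes above background on both arrays gave smaller log2 differences, 2.49 and 1.88, against 2.60 for the sum. The 6.04-fold is therefore not a lower bound. miR-494-3p, of the Dlk1-Dio3 cluster, read 91.5 ± 1.84 on light and 517 ± 2.33 on severe (4.84-fold), with 120.4 on naive and 193 on moderate. miR-370-3p, of the same cluster, read 71.0 ± 1.04 and 355 ± 2.19 (4.29-fold), with 147 on naive and 210.0 on moderate. After scaling, severe was the highest of the 4 arrays for each of these 3 strands. miR-675-3p, cut from the H19 transcript, was measured on severe alone, with 38.7 ± 1.41 units against −15.6 on light (at least 2.19-fold). miR-134-5p, also of Dlk1-Dio3, was measured on severe alone at 27.6 ± 1.12 units, with a bound under 2-fold. The other 9 strands of the list were not detected on either array.

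Among strands of liver the directions were mixed. miR-122-5p, by far the most abundant miRNA of the hepatocyte, read 132 ± 2.03 on light and 417 ± 6.69 on severe, a 2.70-fold difference after scaling. Severe was not the highest array for it: the scaled signals were 1.69 on naive, 0.372 on light, 1.01 on moderate and 1.01 on severe. Light was thus the low array among the 4, and severe and moderate were level. miR-192-5p, of liver, intestine and kidney, read 151 ± 2.01 on light and 588 ± 4.50 on severe (3.35-fold), and 321 and 463 on naive and moderate. miR-193-3p was measured on severe alone (6.13 on light, 64.9 ± 1.23 on severe, at least 3.68-fold higher). miR-215, which shares the seed of miR-192-5p, went the other way, with 105 ± 1.88 on light and 14.6 ± 1.14 on severe (7.66-fold lower against the floor). Its probe above background on both arrays gave a smaller log2 difference, −2.73, against −2.94 for the bound. miR-101a-3p lay under 2-fold at log2 −0.54. The summed scaled signal of the liver list was 1.18 on light and 2.70 on severe.

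Strands of stroma and vessel wall split in the same way. miR-99a-5p, from a cluster with let-7c, read 19.3 ± 0.977 on light and 190.4 ± 1.64 on severe (8.47-fold higher), with 53.7 on naive and 106.8 on moderate. miR-10a-5p, from a Hox gene cluster, read 22.8 ± 1.05 on light and 209.9 ± 1.57 on severe (at least 7.91-fold higher, 5 of 20 spots well above background on light), with 53.2 on naive and 167 on moderate. For both of them the light array was the lowest of the 4 and severe the highest. Its relative miR-10b-5p read 18.3 and 21.7 and lay at log2 0.02 ± 0.08. miR-143-3p, a smooth muscle miRNA, went the other way, with 95.0 ± 2.59 on light and 36.1 ± 0.553 on severe (3.07-fold lower) and 537 on moderate. miR-199a-3p, of fibroblasts, read 37.1 ± 1.08 on light and 15.2 ± 1.14 on severe (at least 2.71-fold lower). miR-214-3p lay at −0.60 and miR-497-5p at −0.24 on the log2 scale. Over the 6 members measured on both arrays, 2 were higher and 1 lower, with a median of −0.11 that changed sign without scaling and under 3 other scalings.

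Of the other leading rises, the largest in the comparison was miR-652-5p. It read 15.5 ± 0.767 on light and 197 ± 2.85 on severe, against 32.9 on naive and 40.7 on moderate, and was at least 10.9-fold higher (log2 3.45 ± 0.07). Only 1 of 20 spots was well above background on light and all 20 were on severe. With the normal-exponential correction the log2 difference was 0.98 for it, 0.95 for miR-10a-5p, 0.90 for miR-99a-5p, 0.81 for miR-483-5p and 0.64 for miR-125a-3p. miR-125a-3p read 51.4 ± 2.10 and 300.0 ± 3.98 (at least 5.003-fold, 2 of 20 spots well above background on light). Its partner strand miR-125a-5p is not among the 139 miRNAs detected on light or severe. miR-877, made from a spliced intron, read 59.9 ± 2.91 and 316 ± 3.38 (4.52-fold as a sum over probes). Its probe above background on both arrays gave a log2 difference of 1.95, against 2.18 for the sum. miR-212-3p, of neurons, read 15.9 ± 0.812 and 81.5 ± 1.21 (4.40-fold as a sum over probes). The probe of miR-212-3p above background on both arrays gave 1.75 on the log2 scale, against 2.14 for the sum. After scaling, severe was the highest array for miR-212-3p and moderate the next. miR-3593-3p read 55.8 ± 0.704 and 257 ± 1.22 (3.94-fold). Between 3.098-fold and 3.84-fold, as sums over probes, lay miR-328a-5p, miR-211-3p and miR-139-3p. The light signal of miR-139-3p, 15.98 units, was near the floor. Its probe above background on both arrays gave a log2 difference of 1.59, against 1.94 for the sum. miR-130b-3p, from a cluster with miR-301b, was 2.71-fold higher, and the strands miR-466b-1-3p, miR-466c-3p and miR-466b-2-3p, of the Sfmbt2 intron cluster, were 2.52-fold, 2.44-fold and 2.12-fold higher. The probes of these miR-466 strands can share targets, so their values are not independent. miR-327 (2.42-fold) and miR-29c-3p (2.05-fold) complete the 22 together with miR-1224, described with the brightest strands.

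The miRNAs measured on severe alone, beside those already described, were led by miR-188-5p. It read 14.999 ± 0.833 on light, with 0 of 20 spots well above background, and 135 ± 1.64 on severe with all 20 (at least 7.66-fold higher). miR-290, of a cluster known from embryonic stem cells, read 15.8 ± 1.15 and 69.3 ± 1.10 (at least 3.77-fold), and the 6 other strands of its list were not detected on either array. miR-150-3p read 4.49 ± 1.09 and 57.3 ± 1.01 (at least 3.25-fold), and miR-1249 6.39 ± 0.768 and 45.8 ± 1.08 (at least 2.59-fold). miR-144-5p, a red-cell strand, read 7.52 ± 0.972 and 38.2 ± 1.16 (at least 2.16-fold). These 5 strands, miR-193-3p, miR-675-3p and miR-92b-3p make up the 8 past 2-fold. The other 7 had bounds of 1.01-fold to 1.82-fold, and with them no difference of 2-fold is shown.

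miR-133b-3p, a miRNA of skeletal and heart muscle, was the largest fall. It read 363 ± 3.35 on light and 39.4 ± 1.40 on severe, against 1114 on naive and 2829.8 on moderate, and was 10.8-fold lower on severe than on light (log2 −3.43 ± 0.05). Severe was far below the other 3 arrays, and moderate was the highest. miR-1-3p, its partner in muscle, read 57.2 ± 1.55 on light and 2.28 ± 1.15 on severe (at least 4.17-fold lower), with 130.5 on naive and 539 on moderate. The other 5 strands of the muscle list, including miR-133a-3p, were not detected on light or severe. The summed scaled signal of the list was 1.18 on light and 0.0948 on severe.

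Leukocyte strands on the lymphocyte and myeloid lists were lower on severe. miR-150-3p, from the other arm of the miR-150 hairpin and not on the lymphocyte list, was at least 3.25-fold higher. miR-150-5p, of mature lymphocytes, read 252 ± 2.53 on light and 36.3 ± 1.33 on severe (8.09-fold lower, log2 −3.02 ± 0.05), with 502 on naive and 486 on moderate. miR-342-3p, also of lymphocytes, read 237 ± 3.97 and 94.9 ± 2.05 (2.91-fold lower). miR-181c-5p was measured on light alone (38.9 ± 1.42 against 4.53, at least 2.84-fold lower), and miR-181a-5p and miR-181b-5p likewise but with bounds under 2-fold. miR-181d-5p, outside the list and of the same seed, was at least 2.52-fold lower, with 7 of 20 spots well above background on severe. All 4 miR-181 strands were thus dimmer on severe. Of the myeloid and pan-leukocyte list, 3 of the 4 members measured on both arrays were past 2-fold: miR-223-3p, of neutrophils, read 4879.8 ± 38.0 on light and 2161 ± 18.4 on severe (2.63-fold lower), and miR-142-5p and miR-146a-5p were 2.58-fold and 2.11-fold lower. miR-142-3p lay under 2-fold at −0.76. The list's median of −1.22 stayed below 0 under all 6 scalings, from −1.23 to −0.30. Summed scaled signals were 1.59 on light and 0.316 on severe for the lymphocyte list, and 16.2 and 6.46 for the myeloid list. In a mixture such as serum, fewer vesicles from a cell type and less of a miRNA in each vesicle cannot be told apart.

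The let-7 family, which restrains proliferation and marks differentiated cells, was lower on severe in all 6 members measured, and 5 of them were past 2-fold, against 32.7% of all miRNAs measured on both arrays. On light they read 98.6 to 486 units and on severe 53.0 to 259. let-7d-5p differed most (139 ± 2.09 and 61.9 ± 1.17, 2.62-fold lower), and let-7i-5p, let-7c-5p, let-7f-5p and let-7a-5p were between 2.12-fold and 2.19-fold lower. let-7b-5p, at 1.84-fold, stayed short of the threshold. The median was −1.11, against −0.47 over all miRNAs, and lay below 0 under all 6 scalings (−1.12 to −0.19). It was short of 2-fold with median scaling (−0.78), with quantile normalization (−0.92) and without scaling (−0.89). With the spike-ins no let-7 member of this seed was past 2-fold. The count of 5 thus belongs to the 75th-percentile scaling. The members differ by few bases, so their probes can share targets and the 6 values are not independent. let-7d-3p, from the other arm of the let-7d hairpin, read 61.7 ± 2.16 on light and 17.6 ± 1.58 on severe (at least 4.09-fold lower). None of its 20 spots was well above background on severe, and 7 were on light.

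The miR-17-92 cluster and its relatives, which promote proliferation, were at least 2-fold lower in 6 of 10 members measured on both arrays, against 32.7% of all miRNAs. The median was −1.01 (−1.02 to −0.09 over the scalings), against −0.47 over all miRNAs, and miR-92a-3p was the member above 0. That median was short of 2-fold with median scaling (−0.68), with quantile normalization (−0.71) and without scaling (−0.79). The count of 6 thus belongs to the 75th-percentile scaling. miR-18a-5p differed most (273 ± 3.94 on light, 113 ± 2.75 on severe, 2.83-fold lower), followed by miR-17-5p and miR-20b-5p at 2.26-fold and 2.199-fold. miR-20a-5p, miR-19a-3p and miR-19b-3p stood just past the threshold, between 2.01-fold and 2.07-fold lower. miR-93-5p and miR-106b-5p lay at −0.86 and −0.56 on the log2 scale, and miR-25-3p and miR-92a-3p near 0. Members with the seed AAAGUGC lay between −1.17 and −0.56, those with GUGCAAA at −1.02 and −1.01, and those with AUUGCAC at −0.20 and 0.08. The list thus held strands past 2-fold and strands near 0. How the seed groups differ was not tested.

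Among the other leading falls, miR-423-5p, abundant in many tissues, read 114 ± 1.34 on light and 21.1 ± 0.921 on severe, near the floor (6.28-fold lower as a sum over probes), with 169.9 on naive and 139.8 on moderate. Of its 2 probes, 1 was at background on severe (1.42 units), and the probe above background on both arrays gave a smaller difference, −1.64 on the log2 scale. miR-328a-3p read 349 ± 3.37 and 102 ± 1.21 (3.98-fold lower). miR-326-3p, from an intron of beta-arrestin 1, read 160.2 ± 2.56 and 55.3 ± 1.54 (3.38-fold lower). For all 3 severe was the lowest of the 4 arrays. miR-26a-5p, a miRNA often low in liver tumours, read 538 ± 5.98 and 215 ± 2.53 (2.92-fold lower). miR-26b-5p and miR-30b-5p were 2.27-fold and 2.26-fold lower, and the other measured members of the miR-26, miR-29 and miR-30 families, apart from miR-29c-3p, lay within 2-fold. Past 2-fold as well were miR-140-3p (2.57-fold), miR-140-5p (2.36-fold), miR-466b-5p (2.32-fold), miR-425-5p (2.26-fold) and miR-301a-3p (2.09-fold). miR-32-3p, measured on light alone, read 42.1 ± 1.29 against 7.26 on severe (at least 3.07-fold lower). With the spike-ins, miR-326-3p and miR-26a-5p stood at −0.83 and −0.62, under 2-fold.

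**Figure D3:**
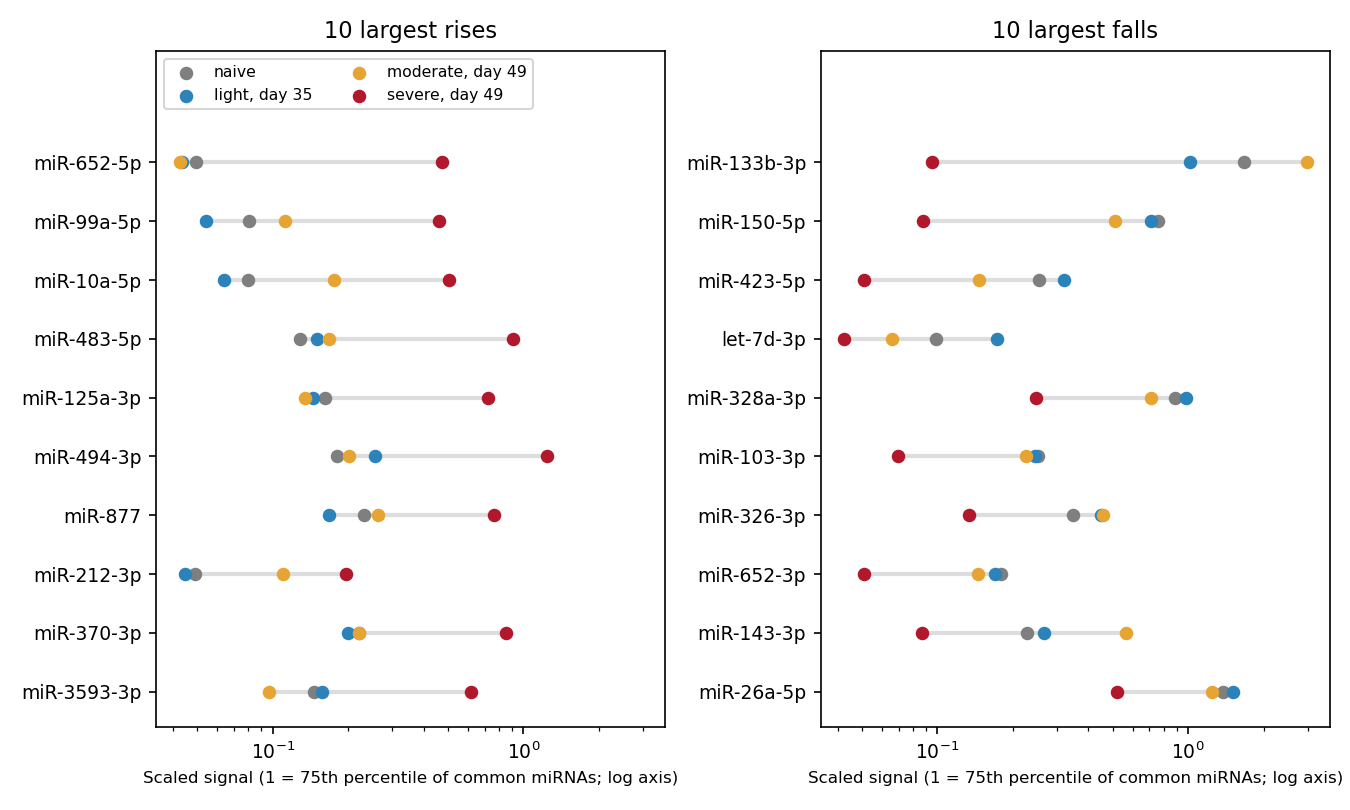
Scaled signal on a log axis of the 10 miRNAs with the largest rise (left) and the 10 with the largest fall (right) among those measured on both arrays, 1 point for each of the 4 arrays. Severe is the highest point in each row on the left and the lowest in each row on the right. For miR-133b-3p and miR-143-3p the moderate array is the highest point, as it is narrowly for miR-326-3p (0.456 against 0.450 on light).

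The position of severe among all 4 arrays held for nearly every miRNA past 2-fold. Of the 22 higher miRNAs, 21 had their highest scaled signal on severe, with miR-122-5p as the exception, and 12 had their lowest on light. Of the 34 lower ones, 33 had their lowest scaled signal on severe, with miR-466b-5p as the exception, and 20 had their highest on light. These miRNAs were chosen by the difference between severe and light, so part of this position was set by the choice. The same share over all 104 miRNAs measured on both arrays was not counted. Some miRNAs under 2-fold also had severe as the extreme array, such as miR-21-5p (highest) and miR-24-3p (lowest). The moderate array, taken on the same day as severe, stayed nearer to light: of 117 miRNAs measured on both, 8 were higher on moderate by 2-fold or more (6.84%) and 8 lower (6.84%). Against moderate, severe had 26 of 115 miRNAs higher by 2-fold or more (22.6%) and 23 lower (20%). These comparisons share arrays with that of severe and light and are given side by side only. On the log2 scale, miR-652-5p lay at 3.45 for severe minus light and −0.03 for moderate minus light, miR-150-5p at −3.02 and −0.47, and miR-494-3p at 2.28 and −0.35. miR-133b-3p differed in direction, at −3.43 for severe and 1.54 for moderate, as did miR-143-3p at −1.62 and 1.08. miR-10a-5p and miR-99a-5p were higher on both, at 2.98 and 3.08 for severe and 1.45 and 1.05 for moderate.

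For 8 precursors with 1 strand named for each arm, both arms were measured on at least 1 of the 2 arrays, and in 4 of them the summed signals of the arms had opposite signs. In miR-652 the 5p strand was at least 10.9-fold higher, whereas the 3p strand was 3.35-fold lower (60.5 ± 1.996 on light, 21.1 ± 1.03 on severe). miR-328a had the same pattern, with the 5p strand 3.098-fold higher (49.6 ± 1.18 and 179 ± 2.48) and the 3p strand 3.98-fold lower. In miR-150 it ran the other way, with the 5p strand 8.09-fold lower and the 3p strand at least 3.25-fold higher. Under the main scaling each of these 3 precursors held 1 strand past 2-fold up and 1 past 2-fold down. With the spike-ins miR-652-3p was under 2-fold (−0.82). With the normal-exponential correction miR-652-5p (0.98), miR-652-3p and miR-150-3p were under 2-fold. For miR-324 the opposite sign is not settled by the probes. The 3p strand lay at 0.17 as a sum, but its probe above background on both arrays gave −0.26, the sign of the 5p bound (−0.70). The other 3p probe, not above background on both arrays, read 9.39 on light and 21.1 on severe. miR-466b has copies that share the 5p strand and differ in the 3p strand, so it is not among the 8; miR-466b-5p lay at −1.21, and miR-466b-1-3p and miR-466b-2-3p at 1.34 and 1.08. Arms of the same sign were those of let-7d (−1.39 and −2.03), miR-140 (−1.24 and −1.36), miR-142 (−1.37 and −0.76) and miR-144 (bound 1.11 and 0.44), 5p first. The opposite signs of miR-652 and miR-328a held under the 6 scalings.

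**Figure D4:**
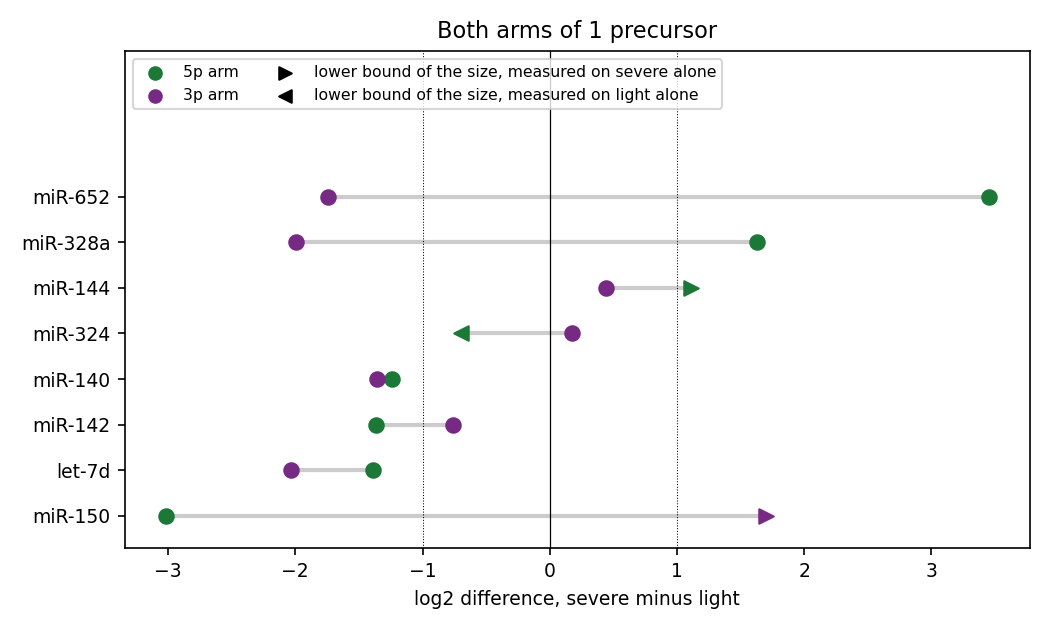
log2 difference, severe minus light, of the 5p arm (green) and the 3p arm (purple) of 8 precursors; circles were measured on both arrays and triangles are lower bounds from 1 array. The arms of miR-652, miR-328a, miR-150 and miR-324 fall on opposite sides of 0, for miR-324 by a 3p value of 0.17 on which its 2 probes differ in direction.

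The near-identical pairs printed above also lay apart. miR-103-3p read 87.4 ± 1.84 on light and 28.9 ± 1.45 on severe (log2 −1.82 ± 0.08), while miR-107-3p, 1 base different, read 289.7 ± 4.97 and 291 ± 4.65 (−0.22 ± 0.03). miR-29c-3p read 229.9 ± 2.04 and 549.5 ± 4.58 (1.03 ± 0.02), while miR-29a-3p, also 1 base different, read 1261 ± 13.9 and 1602 ± 16.5 (0.12 ± 0.02). miR-130b-3p read 164 ± 3.88 and 518 ± 6.46 (1.44 ± 0.04), while miR-130a-3p read 1457 ± 15.3 and 2155 ± 20.5 (0.34 ± 0.02). In each pair the gap between the members was larger than their spot noise, although both carry the same seed. The pairs were chosen for lying apart, and other pairs of 1 seed lay closer on the log2 scale. miR-19a-3p and miR-19b-3p were 0.01 apart, miR-101a-3p and miR-101b-3p 0.23, and miR-23a-3p and miR-23b-3p 0.60. The 2 probes of miR-29a-3p gave −0.56 and 0.31, so its value near 0 is an average of probes that disagree. How far 1 member's RNA binds the other's probes was not tested.

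More widely, probes of a miRNA mostly agreed. Of the 66 miRNAs with at least 2 probes above background on both arrays, 63 had all probes of 1 sign, the exceptions being miR-29a-3p, miR-6216 and miR-92a-3p. All 34 of them that were past 2-fold had probes of 1 sign. The SD between probes of the log2 difference had a median of 0.04 but a root mean square of 0.19, since some miRNAs had wide gaps. The probes of miR-328a-5p, for example, gave 2.12 and 1.35. A further 32 miRNAs rested on 1 such probe.

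Of the other lists, few strands were past 2-fold. The red-cell list had a median of −0.69 over 3 members with 0 past 2-fold, and that median was 0.00 with quantile normalization and 0.23 with the spike-ins. miR-451-5p, the most abundant red-cell miRNA, lay at −0.69, miR-16-5p at −0.94 and miR-144-3p at 0.44. Platelet and endothelial strands had 0 of 4 past 2-fold and a median of −0.43 (0.49 with the spike-ins); miR-126a-3p, of endothelium and platelets, read 24.7 ± 0.677 on light and 22.7 ± 0.917 on severe. The miR-23, miR-24 and miR-27 clusters had 0 of 5 past 2-fold and a median of −0.05 that was above 0 under 4 of the scalings. The 7 epithelial and the 3 pancreatic strands were not detected on either array. In the brain list 2 of 9 strands were detected, miR-212-3p and miR-128-3p (−0.58). Levels of the cell-type lists moved with the single strands named under them, and their part in those differences was not tested.

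Strands reported as raised in HCC had 1 higher, miR-130b-3p, and 1 lower, miR-18a-5p, among 4 measured on both arrays, with a median of 0.06. miR-21-5p, a miRNA raised in many tumours, read 1778 ± 12.1 and 2551 ± 30.5 and lay under 2-fold at 0.30, and miR-210-3p, induced by low oxygen, lay at −0.17. miR-92b-3p was higher as a bound, and the bounds of miR-183-5p and miR-221-3p stayed under 2-fold. Strands reported as lowered in HCC had 2 higher, miR-122-5p and miR-29c-3p, and 2 lower, miR-223-3p and miR-26a-5p, among 8, with a median of −0.57 that was 0.35 with the spike-ins. These lists share members with the liver, stromal and leukocyte lists.

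**Figure D5:**
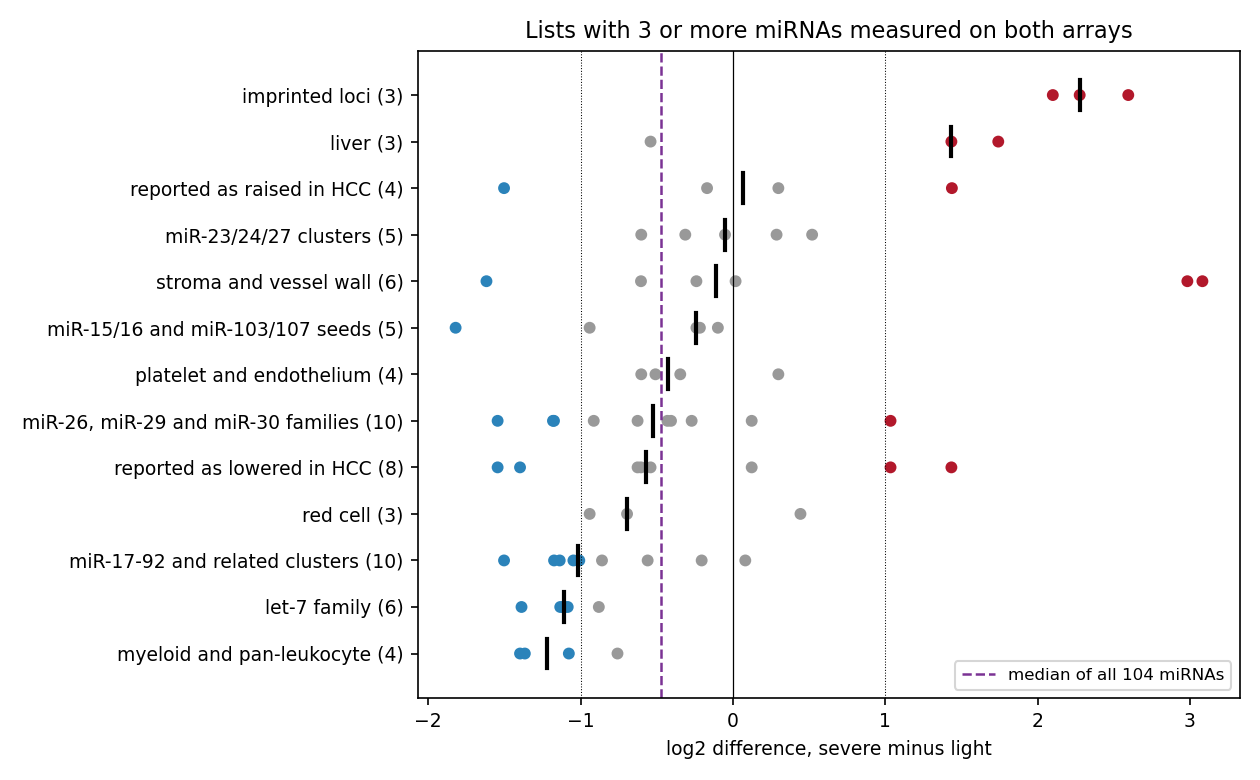
log2 difference, severe minus light, of each list member measured on both arrays (points; red at least 2-fold higher, blue at least 2-fold lower) and the list median (black bar), for the 13 lists with at least 3 such members. The imprinted and liver medians lie to the right at 2.28 and 1.43, the myeloid, let-7 and miR-17-92 medians at or left of −1.01, and the dashed line marks the median over all miRNAs measured on both arrays, −0.47; under the spike-ins the medians of the red-cell, platelet, stromal, miR-15/16, miR-23/24/27, miR-26/29/30 and lowered-in-HCC lists are above 0.

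The brightest strands changed order between the arrays. On light, miR-451-5p took 21.8% of the summed signal, followed by miR-3584-5p (11.6%), miR-3473 (7.98%), miR-1224 (6.91%) and miR-223-3p (5.46%). On severe, miR-1224 came first with 20.5%, then miR-3584-5p (17.3%), miR-451-5p (14.5%), miR-3473 (3.60%) and miR-92a-3p (2.96%). Such shares are of array signal and not of molecules, since probes differ in brightness. miR-1224 read 6181 ± 32.01 on light and 19827 ± 105 on severe (2.75-fold higher), with 9508 on naive and 9745 on moderate, so severe stood alone. Its 2 probes differed in size, at log2 2.77 for the dim probe (164 units on light) and 1.40 for the bright one (6016 units). The sum follows the bright probe. miR-3473 read 7134 ± 48.1 and 3479 ± 22.5 (2.39-fold lower), and miR-3584-5p lay under 2-fold at 0.47.

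Near the threshold, the rises closest above 2-fold were miR-29c-3p (1.03), miR-466b-2-3p (1.08), miR-327 (1.28), miR-466c-3p (1.28) and miR-466b-1-3p (1.34). Closest below it were miR-27b-3p (0.52), miR-3584-5p (0.47), miR-144-3p (0.44), miR-320-3p (0.39) and miR-130a-3p (0.34), so a gap separates the higher miRNAs from the rest. On the lower side no such gap was present. miR-19b-3p (−1.01), miR-19a-3p (−1.02), miR-20a-5p (−1.05), miR-301a-3p (−1.07) and miR-146a-5p (−1.08) stood just past 2-fold. Just short of it were miR-185-5p (−0.95), miR-872-5p (−0.94), miR-16-5p (−0.94), miR-30e-5p (−0.91) and let-7b-5p (−0.88).

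Runs of G are seen in printed strands of both directions, such as miR-652-5p and miR-1224 among the higher and miR-652-3p and miR-423-5p among the lower. The motif GGG, chosen after the values were seen and searched in the mature strand as written, was found in 11 of the 19 higher miRNAs with a sequence (57.9%). It was in 8 of 30 lower ones (26.7%), in 8 of 45 between (17.8%) and in 161 of the 641 array miRNAs with a sequence (25.1%). Of the 12 measured on severe alone with a sequence, 5 held it (41.7%). The median U content was 19.0% in the higher, 27.9% in the lower and 27.3% in the between group. Across 94 miRNAs the log2 difference correlated with the U percentage at Pearson r = −0.36 (Spearman rho −0.28) and with the G percentage at r = 0.22 (rho 0.10). These values are descriptions of 1 pair of arrays, and miRNAs of a family share sequence.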

How the data were processed

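Per the file headers, the deposited intensity values per spot came from Agilent Feature Extraction 10.7.3.1 (the submitters' processing notes name 9.1), background-subtracted and not scaled between arrays. The 4 arrays lie on 1 slide of design 046066. Spots marked as outliers were left out; signals were averaged over the spots of a probe, summed over the probes of a miRNA, scaled to each array's 75th percentile (taken over miRNAs detected on all arrays), and set on a log2 scale. Detection is the software's call. The deposited intensity table of the series holds 102 of the miRNAs and equals the software's total gene signal within 0.0424%; how the 102 were chosen is not stated.

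The threshold was 2-fold, with no test. Named miRNAs are miR-92b-3p, the 10 largest rises and falls of the same direction in the total gene signal, up to 8 bounds of at least 2-fold on each array, the 5 brightest, the 5 on each side of the threshold, members of 20 lists, arm pairs and seed relatives. The miRNAs and lists were chosen with earlier results of these data known. Of 140 listed miRNAs, 137 were on the array (miR-148a-3p, miR-486 and miR-155-5p had no match). Sequences were matched by name to RefSeq; the files are annotated on rn4 and the table is of GRCr8, so no coordinates are given. Alternatives covered scaling, signal, probes, spots, background, detection, floor and low signals. The planned normal-exponential correction used median spot signals, the column used here. Python 3.11.15, pandas 2.3.3, R 4.3.3 and limma 3.58.1 were used, and the code was tested on simulated data.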

Additional observations from a re-analysis of the deposited data

How the results depend on the processing

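The main values were 22 higher, 34 lower, a median of −0.47, 8 bounds on severe and 5 on light. The count of lower miRNAs was 17 with median scaling, 20 with quantile normalization, 19 without scaling, 5 with labelling spike-ins, 17 with the brightest probe, 7 with the normal-exponential correction, 15 with detection by spots well above background and 15 in the deposited value table. In that order the median was −0.14, −0.20, −0.25, 0.45, −0.16, −0.27, −0.21 and −0.097. The count of higher miRNAs left the range of 16 to 33 only with the normal-exponential correction, at 5; its offset of 50 lowers folds by construction. Bounds on severe alone numbered 14 with spike-ins, 0 with the normal-exponential correction, 16 with detection by spots, 13 with the lowest summed signal as floor and 4 among miRNAs at 4 times the floor. Bounds on light alone numbered 2 with spike-ins, 10 with the total gene signal, 2 with the brightest probe, 0 with the normal-exponential correction, 11 with the lowest summed signal as floor and 1 at 4 times the floor. The bound of miR-92b-3p was 0.90 (log2) with the normal-exponential correction and 3.48 to 5.13 under the other alternatives that gave it. Causes of these shifts, other than the offset, were not tested. For the 33 named miRNAs under 14 alternatives, 390 values kept direction and side of the threshold, 40 kept direction but were under 2-fold, and none reversed; 5 of the 33 stayed past 2-fold with the same sign in every alternative that gave a value. The 75th percentile over all 719 miRNAs lay at −0.74 on light and 0.34 on severe, so that scaling gave no value, and quantile normalization and the value table gave no bounds. No paired analysis was possible because each group has 1 array. The number of arrays and, near the floor, the signal over background limit every fold.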
